A study of Mus musculus with 48 samples.

Results

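The genes described here are 10 genes of muscle wasting and of the FoxO transcription factors, read in the gastrocnemius muscle of mice 9 days after Roux-en-Y gastric bypass (RYGB) or sham surgery. They were taken by symbol, 1 row for each Ensembl identifier, and all 10 were found among the 12016 genes of the muscle table. They are the ubiquitin ligases Fbxo32 and Trim63, the transcription factors Foxo1 and Foxo3, the growth inhibitor Mstn, the stress and growth arrest genes Ddit4, Cdkn1a and Gadd45a, and the glucocorticoid receptor targets Klf15 and Fkbp5. RNA sequencing libraries were made from male C57Bl6 mice that were obese from a high fat diet, in RYGB and sham groups alike. For 9 days after surgery mice of both groups were on a liquid elemental diet, the protocol then going back to the high fat diet, and they were fasted before tissue was taken in the morning. Muscle, liver and subcutaneous white adipose tissue (WAT) had 4 RYGB and 4 sham libraries each, of 48 libraries in 6 tissues. The labels give no body weight or food intake at day 9, so that the bypass itself and any difference in weight or intake cannot be told apart. The labels do not say whether equally numbered libraries of different tissues or groups came from the same mouse or day, and p-values measure only the spread between these libraries.

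Skeletal muscle loses mass when protein breakdown exceeds synthesis. Insulin and IGF1 act through the kinase Akt, which keeps the FoxO factors out of the nucleus. In fasting, disuse or glucocorticoid excess the FoxO factors enter the nucleus and switch on genes of the ubiquitin-proteasome system and of autophagy. Fbxo32 (atrogin-1, also called MAFbx) and Trim63 (MuRF1) are the best known of these genes, and their RNA is the usual marker of atrophy. Glucocorticoids act on some of the same genes through their own receptor, and myostatin, the product of Mstn, restrains muscle growth through activin receptors. All mice here were fasted, so both groups were measured in a state in which this programme is usually active.

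In the mouse genome GRCm38 Fbxo32 (ENSMUSG00000022358) lies on the minus strand of chromosome 15, from 58175879 to 58214932. Trim63 (ENSMUSG00000028834) lies on the plus strand of chromosome 4, from 134315120 to 134329629. Mstn (ENSMUSG00000026100) lies on the plus strand of chromosome 1, from 53061640 to 53068079, and Fkbp5 (ENSMUSG00000024222) on the minus strand of chromosome 17, from 28399094 to 28517527. These and the other 6 genes are annotated as protein coding by GENCODE M21.

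The stretch before the start of Trim63 is shown because it holds, side by side, the letters that the glucocorticoid receptor and the FoxO factors are known to bind. It spans the 250 bases before the start of the gene on the plus strand (chr4:134314870-134315119, GRCm38.p6, RefSeq). The capitals mark a glucocorticoid receptor palindrome, searched as GNACA and TGTNC with 3 bases between them, from 208 to 196 bases before the start, and the FOXO core GTAAACA, here on the other strand as TGTTTAC, from 194 to 188 bases before it:
Trim63: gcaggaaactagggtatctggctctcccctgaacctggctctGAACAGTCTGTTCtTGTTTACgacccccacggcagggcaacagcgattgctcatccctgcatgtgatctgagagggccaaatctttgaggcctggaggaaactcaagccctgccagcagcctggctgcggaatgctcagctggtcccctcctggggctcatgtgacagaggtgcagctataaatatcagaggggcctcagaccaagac
Promoter windows of the same kind were at hand for 9 of the 10 genes (10 windows). On either strand the FOXO core was present in 1 of the 10 windows and in 3.65% of all 32851 mouse windows, and the palindrome in 1 of the 10 and in 0.475% of all. Trim63 was the gene in both cases, and 5 of all windows held both (0.0152%). The matches are a description of these letters, and none of the measurements here bears on binding.

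Expression is given as CPM, in which each library is scaled to the same total, and the authors rounded it to 0.1. CPM is not divided by transcript length, so levels are compared between libraries and not between genes. RYGB was compared with sham by limma on log2(CPM + 1), which understates the change of genes of low level, and fold changes are given on that log2 scale as RYGB over sham with the standard error (SE). A gene was called where its p-value, adjusted by Benjamini-Hochberg over all genes tested in the tissue, was under 0.05 and its fold at least 1.5. In muscle none of 11966 genes tested was called (0%), while 1746 genes (14.6%) had an unadjusted p under 0.05. Among the 10 genes none was called and 3 had an unadjusted p under 0.05, namely Mstn, Gadd45a and Foxo3. Their median log2 fold change was 0.19, beside 0.05 over all genes tested, and 8 of the 10 were positive. For 5 of them the 95% interval lay below a rise of 1.5-fold. In bulk tissue a smaller share of cells of a type and less RNA per cell cannot be told apart.

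The identity of the tissue was checked first. All 14 skeletal muscle markers were listed in the muscle table, with sums between 166944.5 and 242737.5 CPM. Single genes of that list went either way, and 6 of the 14 had an unadjusted p under 0.05. Without overlap Myh2 (log2 fold change 2.69) and Des (0.48) were higher in RYGB and Myh4 (-0.57), Pvalb (-0.78) and Myl1 (-0.61) lower, while Myh1 (1.53) and Mb (1.73) were higher with overlap. Myh4 encodes the myosin of the fastest fibres and Myh2 that of fast oxidative fibres. Of 5 endothelial markers 4 had an unadjusted p under 0.05, with sums of 241.2 to 326.6 CPM in sham and 268.9 to 460.4 CPM in RYGB. Over all genes tested in muscle the groups did not overlap with RYGB higher in 4.77% and with RYGB lower in 2.62%. The 7 slow fibre genes did not overlap between the groups, all with RYGB higher. Their summed level was 699.0, 207.8, 116.5 and 76.9 CPM in sham replicates 1 to 4 and 2532.0, 2165.1, 5861.2 and 892.7 CPM in RYGB replicates 1 to 4. The lowest RYGB library thus lay above the highest sham library, and RYGB replicate 3 was highest. Myh7, the myosin heavy chain of slow fibres, had the largest fold of the list (log2 fold change 5.51, SE 1.27, adjusted p = 0.116 by limma), and none of the 7 was called. The gastrocnemius of the mouse is mostly a fast muscle, and the source of the slow fibre RNA was not tested. The adipocyte sum was highest in sham replicate 3, at 1179.1 CPM, beside 151.8 to 502.2 CPM in the other 7 libraries.

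Fbxo32, the ligase that marks proteins for breakdown in wasting muscle, did not separate the groups. Its level was 488.5, 126.8, 169.0 and 547.4 CPM in the sham libraries and 337.4, 266.0, 386.2 and 252.7 CPM in the RYGB libraries, in the order of the replicates. The sham libraries fell on either side of all 4 RYGB libraries, with replicates 1 and 4 above them and replicates 2 and 3 below. The means were 333 ± 216 (SD, n = 4) and 311 ± 62.7 (SD, n = 4), and the highest sham library held 4.32 times the level of the lowest, beside 1.53 times in RYGB. On the log2 scale the difference had the opposite sign to that of the means in CPM. The log2 fold change was 0.15 (SE 0.44, 95% interval -0.83 to 1.13, adjusted p = 0.917 by limma), so that these libraries leave room for anything from 0.563-fold to 2.19-fold. Its SD within groups, 0.78 on the log2 scale, was larger than that of 98.8% of genes tested. The direction of the difference rested on single libraries, since it became -0.22 once sham replicate 2 was left out, -0.082 once replicate 3 was and 0.48 once replicate 4 was.

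Trim63, the ligase that acts on myosin and other proteins of the contractile apparatus, varied less. It was measured at 188.0, 159.1, 156.5 and 251.3 CPM in sham and at 180.7, 131.8, 131.8 and 211.6 CPM in RYGB. The groups overlapped over most of their range, and replicate 4 was the highest library in either group. The log2 fold change was -0.20 (SE 0.19, 95% interval -0.63 to 0.23, adjusted p = 0.677 by limma). The interval of the difference thus lay below a 1.5-fold rise for Trim63 but not for Fbxo32.

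**Figure D1:**
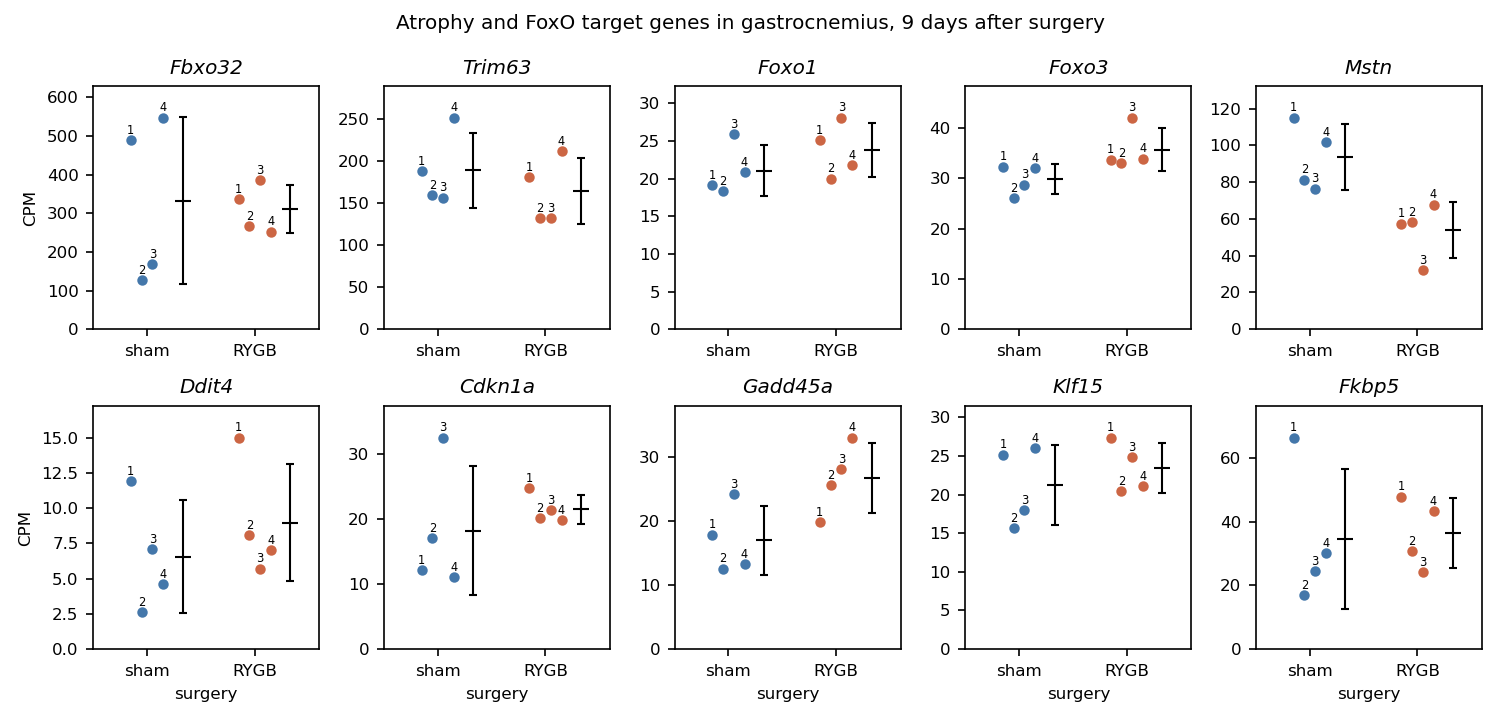
Levels of the 10 genes in gastrocnemius (CPM, each panel with its own axis from 0) in sham (blue) and RYGB (orange) libraries, with the replicate number above each point and the mean with SD (n = 4) to the right of each group. Mstn and Foxo3 are the genes whose groups do not overlap, and the sham libraries of Fbxo32 lie on either side of all RYGB libraries.

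Foxo1 and Foxo3 encode the transcription factors themselves, and their RNA says nothing of whether the protein was in the nucleus. Foxo1 stood at 19.1, 18.3, 25.9 and 20.9 CPM in sham and at 25.1, 20.0, 28.1 and 21.8 CPM in RYGB, and the groups overlapped (log2 fold change 0.17, SE 0.14, adjusted p = 0.626 by limma). Foxo3 was 32.3, 26.0, 28.7 and 32.0 CPM in sham and 33.7, 33.0, 42.0 and 33.9 CPM in RYGB. All RYGB libraries of Foxo3 lay above all sham libraries, 3 of them by little and replicate 3 by more. The log2 fold change was 0.25 (SE 0.11, adjusted p = 0.320 by limma), and it was 0.17 without RYGB replicate 3, the library with the highest slow fibre sum. With libraries scaled by median ratio it was 0.19 (SE 0.11, adjusted p = 0.460 by limma). Groups that did not overlap were seen in 7.40% of genes tested in muscle, with RYGB higher in 4.77% and lower in 2.62%.

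Mstn, the secreted brake on muscle growth, was lower in every RYGB library than in any sham library. Its level was 115.0, 81.3, 76.5 and 101.8 CPM in sham and 57.4, 58.2, 32.1 and 67.7 CPM in RYGB. The highest RYGB library, replicate 4, lay below the lowest sham library, replicate 3, and RYGB replicate 3 was the lowest of all. The means were 93.7 ± 18.0 (SD, n = 4) and 53.9 ± 15.2 (SD, n = 4), a log2 fold change of -0.82 (SE 0.22, 95% interval -1.31 to -0.33) or 0.567-fold. The unadjusted p was 0.00424, and the adjusted p of 0.151 by limma did not pass the threshold. Without RYGB replicate 3 the log2 fold change was -0.59, and among the 2 libraries of each group that share a name ending it was -0.73. The library names end in L and a number, which is read here as a sequencing lane although the labels do not say so. The other muscle lanes, so read, held libraries of a single group, so that lane and surgery cannot be told apart there. With lane as a covariate the log2 fold change of Mstn was -0.73 (SE 0.33, adjusted p = 0.459 by limma). The library with the lowest Mstn was the library with the highest slow fibre sum, and the part of the slow fibre genes in the difference was not tested.

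**Figure D2:**
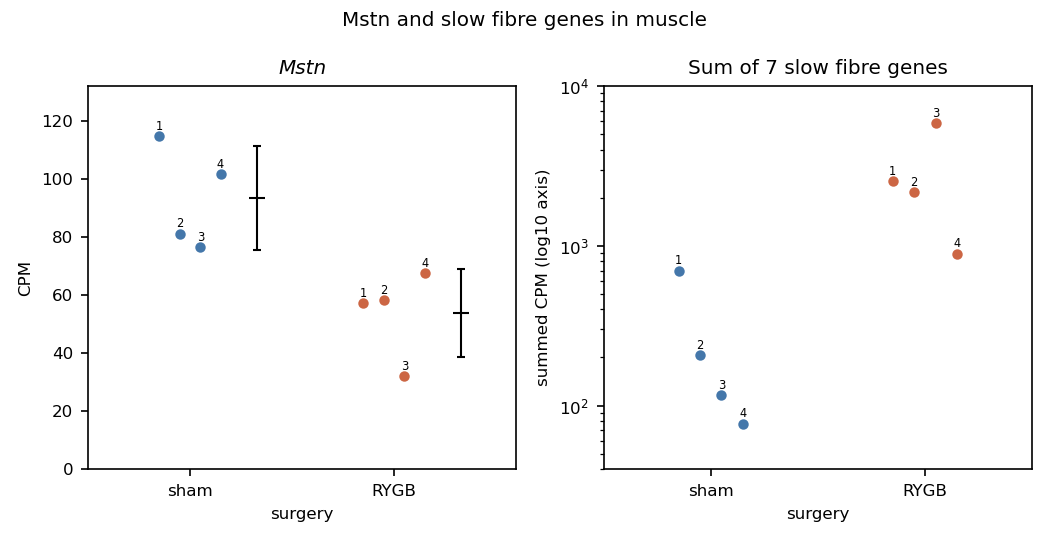
Mstn (left, CPM, axis from 0, mean with SD, n = 4) and the summed CPM of 7 slow fibre genes (right, log10 axis) in each sham (blue) and RYGB (orange) muscle library, with replicate numbers. Neither measure overlaps between groups, and RYGB replicate 3 is lowest for Mstn and highest for the slow fibre sum.

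Of the 3 stress and growth arrest genes, Gadd45a had the largest difference. Gadd45a encodes a small nuclear protein induced in denervated and fasted muscle. It was 17.9, 12.6, 24.3 and 13.3 CPM in sham and 19.9, 25.7, 28.2 and 33.1 CPM in RYGB. A single sham library, replicate 3, lay within the RYGB range, and the other 3 lay below it. The log2 fold change was 0.64 (SE 0.21, 95% interval 0.17 to 1.12), or 1.56-fold, with an unadjusted p of 0.0128 and an adjusted p of 0.213 by limma. It ran from 0.52 without sham replicate 2 to 0.82 without sham replicate 3 (adjusted p = 0.0600 by limma). Sham replicate 3, the highest sham library for Gadd45a, Cdkn1a and Foxo1, also had the highest adipocyte sum. The part of adipocytes in these values was not tested.

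Cdkn1a encodes p21, an inhibitor of cell cycle kinases. It was 12.1, 17.0, 32.5 and 11.1 CPM in sham and 24.7, 20.1, 21.3 and 19.8 CPM in RYGB, so that 3 sham libraries lay below and 1 above the RYGB range (log2 fold change 0.35, SE 0.28, adjusted p = 0.619 by limma). Ddit4 encodes REDD1, a stress-induced inhibitor of the growth kinase complex mTORC1. It was low, at 11.9, 2.6, 7.1 and 4.6 CPM in sham and 15.0, 8.1, 5.7 and 7.0 CPM in RYGB, and replicate 1 was the highest library of either group (log2 fold change 0.47, SE 0.38, adjusted p = 0.627 by limma). Single libraries moved both values: Cdkn1a ran from 0.17 without sham replicate 4 to 0.66 without sham replicate 3 (adjusted p = 0.0641 by limma), and Ddit4 from 0.17 without sham replicate 2 to 0.78 without sham replicate 1 (adjusted p = 0.427). Neither gene was called in any of these fits.

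The glucocorticoid receptor targets did not separate the groups in muscle. Klf15, a transcription factor of amino acid breakdown, was 25.2, 15.7, 18.0 and 26.0 CPM in sham and 27.4, 20.5, 24.9 and 21.1 CPM in RYGB (log2 fold change 0.16, SE 0.17, adjusted p = 0.721 by limma). Fkbp5, a chaperone partner that dampens the glucocorticoid receptor, was 66.5, 16.9, 24.6 and 30.2 CPM in sham and 47.9, 30.7, 24.3 and 43.3 CPM in RYGB (log2 fold change 0.21, SE 0.37, adjusted p = 0.844 by limma). The highest sham library of Fkbp5 held 3.94 times the level of the lowest. As for Fbxo32, its direction turned on a single library and was -0.057 without sham replicate 2.

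Whether the genes varied together from library to library was described by the 45 pairs of the 10 genes over the 8 muscle libraries. Pearson's r on log2(CPM + 1) ran from -0.70 to 0.93. For 3 pairs the exact permutation p (pairings, two-sided) was under 0.05, and after Benjamini-Hochberg adjustment over the 45 pairs this was so for 1 pair, Fbxo32 and Klf15. Their r was 0.93 (exact permutation p = 0.000992, adjusted 0.0446), and Spearman's rho was 0.83 (exact permutation p = 0.0154, adjusted 0.419). Without the 2 libraries farthest from the median of Fbxo32, r was 0.87, and r of the deviations from the group means was 0.95. Over the 4 sham libraries alone r was 0.998 and over the 4 RYGB libraries 0.82, given as descriptions. The adjusted p stayed under 0.05 in 1 of 8 repeats without a library, that without RYGB replicate 1, and reached 0.268 in the others, while r stayed between 0.87 and 0.99. The other 2 pairs were Ddit4 with Fkbp5 (r 0.84, exact permutation p adjusted 0.238) and Foxo1 with Mstn (r -0.70, exact permutation p adjusted 0.393).

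Among all genes tested in muscle, those whose pattern over the 8 libraries was most like that of Fbxo32 were Bsdc1 (r 0.987), Tor1aip1 (r 0.974), Epc2 (r 0.968), Col22a1 (r 0.966) and Rbl2 (r 0.957), and Klf15 ranked 15. The libraries of Bsdc1 ran from 38.1 to 56.4 CPM in sham and from 47.2 to 52.6 CPM in RYGB, the same order as for Fbxo32, in which the sham range encloses the RYGB range. These r are over 8 points and were picked as the highest of all genes, so no p is given.

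**Figure D3:**
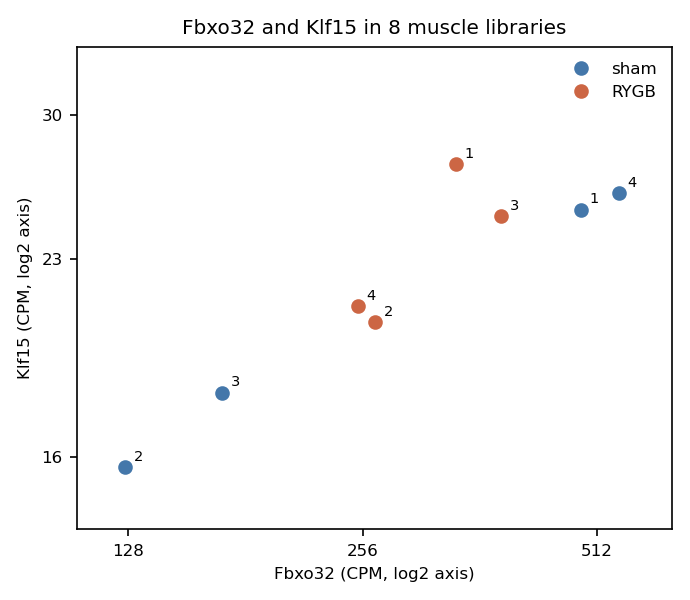
Fbxo32 against Klf15 in the 8 muscle libraries (CPM, log2 axes), sham in blue and RYGB in orange, with replicate numbers. Sham replicates 2 and 3 are lowest for both genes, and sham replicates 1 and 4 have the highest Fbxo32, with the RYGB libraries in between.

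The rest of the pathway was read in 8 further lists, with 105 rows tested in muscle (Hdac4 has 2 identifiers). The lists were chosen with earlier results of these data known. The shares given for them in any tissue are thus descriptions and no test of the pathway. None of the rows was called in muscle, and 27 of the 105 (25.7%) had an unadjusted p under 0.05, beside 14.6% of all genes. Of these rows 9 did not overlap with RYGB higher and 3 with RYGB lower, beside 4.77% and 2.62% of all genes. Among 14 other FoxO target genes tested, 13 had a positive log2 fold change and 7 an unadjusted p under 0.05, with a median of 0.34 beside 0.05 over all genes. The only negative gene was Bcl6, which was among these 7 (log2 fold change -0.47, SE 0.18, adjusted p = 0.283 by limma). Bcl6 was named after its values were seen. By size of the difference Lpl, Pdk4 and Cat led the list. Lpl, which releases fatty acids from circulating fat, ranged from 147.6 to 610.2 CPM in sham and from 398.3 to 1725.5 CPM in RYGB (log2 fold change 1.70, SE 0.51, adjusted p = 0.184 by limma). Pdk4, which shuts pyruvate out of the mitochondrial oxidation of glucose, ranged from 250.6 to 382.5 CPM in sham and from 327.3 to 1906.9 CPM in RYGB (log2 fold change 1.36, SE 0.46, adjusted p = 0.220 by limma). Cat, the catalase that removes hydrogen peroxide, did not overlap, with 51.5 to 79.5 CPM in sham and 85.0 to 203.2 CPM in RYGB (log2 fold change 0.73, SE 0.25, adjusted p = 0.234 by limma). The list's smallest p-values belonged to Cited2, a transcription cofactor, at 35.6 to 38.8 CPM in sham and 53.5 to 62.9 CPM in RYGB (0.59, SE 0.08, adjusted p = 0.0547 by limma), and to the stress gene Sesn1, at 17.6 to 25.8 CPM in sham and 29.9 to 35.2 CPM in RYGB (0.57, SE 0.12, adjusted p = 0.112), both without overlap and named after their values were seen. The slow fibre sums differed between the same libraries, and their part in these values was not tested.

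Of 16 autophagy genes, 8 had a positive log2 fold change and 2 an unadjusted p under 0.05. Gabarapl1, which coats the growing autophagosome, did not overlap, with 32.1 to 42.5 CPM in sham and 56.4 to 123.4 CPM in RYGB (log2 fold change 0.99, SE 0.21, adjusted p = 0.112 by limma). Map1lc3a, of the same family, had a log2 fold change of 0.39 (adjusted p = 0.184 by limma), and the mitophagy receptor Bnip3 had 0.31 (adjusted p = 0.422). Of 12 other ubiquitin ligases of muscle, 7 were positive and 1 had an unadjusted p under 0.05, Fbxo30 (log2 fold change 0.30, adjusted p = 0.191 by limma). Asb2 (-0.36, adjusted p = 0.469) and Cblb (0.23, adjusted p = 0.418) were the other ligases with the largest differences.

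Upstream of the FoxO factors, 3 of 14 genes of insulin and IGF1 signalling had an unadjusted p under 0.05, namely Akt1, Igf1 and Igfbp5. Akt1, 1 of the genes of the kinase that acts on FoxO and named after its values were seen, was 42.8 to 50.3 CPM in sham and 54.7 to 65.1 CPM in RYGB without overlap (log2 fold change 0.36, SE 0.08, adjusted p = 0.116 by limma). By size Igfbp5, a binding protein of IGF1, led at -0.51 (adjusted p = 0.305), followed by Foxo6 at -0.50 (adjusted p = 0.358) and Igf1 itself at -0.39 (adjusted p = 0.300). Of 14 genes of the myostatin and activin pathway, 4 were positive and 4 had an unadjusted p under 0.05. Acvr1b, a receptor through which myostatin signals, was 86.7 to 101.1 CPM in sham and 46.0 to 86.0 CPM in RYGB without overlap (log2 fold change -0.40, SE 0.17, adjusted p = 0.326 by limma). Gdf11, the closest relative of myostatin, had -0.47 (adjusted p = 0.297), and Wfikkn2, which binds and blocks myostatin, had 0.35 (adjusted p = 0.213).

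Of 13 other glucocorticoid response genes, 7 were positive and 4 had an unadjusted p under 0.05, led by Cebpd (log2 fold change 0.68, adjusted p = 0.162 by limma), Mt1 (0.52, adjusted p = 0.280) and the clock gene Per1 (0.49, adjusted p = 0.277). The fourth was Tsc22d3, which encodes the glucocorticoid-induced protein GILZ, with -0.40 (adjusted p = 0.264), named after its values were seen. Of 10 genes of mTORC1 control, 4 had an unadjusted p under 0.05. The kinase Mtor was 44.9 to 48.1 CPM in sham and 53.0 to 78.7 CPM in RYGB (log2 fold change 0.36, adjusted p = 0.225 by limma), and its substrate Rps6kb1 was 62.8 to 71.5 CPM in sham and 49.6 to 62.7 CPM in RYGB (-0.28, adjusted p = 0.195), neither with overlap. Rptor had 0.25 (adjusted p = 0.283). The last of these 4 was Tsc2, at 81.9 to 90.9 CPM in sham and 96.3 to 104.5 CPM in RYGB without overlap. Its log2 fold change was 0.22 (adjusted p = 0.195 by limma), and it was named after its values were seen. Of the genes of denervation and growth arrest, 10 of 12 rows were positive, and Myog, a regulator of muscle differentiation that also rises after denervation, was 2.3 to 4.6 CPM in sham and 5.0 to 6.3 CPM in RYGB (log2 fold change 0.63, adjusted p = 0.135 by limma). Gadd45g had 0.64 (adjusted p = 0.437) and Ncam1 0.60 (adjusted p = 0.350).

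The same genes were then read in liver and WAT. Each tissue has its own table, so no test was made of levels or fold changes across tissues. Trim63 and Mstn were not listed in either table, which leaves 8 of the 10 genes. Of the skeletal muscle markers 1 of 14 was listed in liver and 7 of 14 in WAT, where their sums were 49.2 to 146.4 CPM. In liver 836 of 11807 genes were called (7.08%), in WAT 3231 of 13379 (24.1%).

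In liver Fkbp5 rose after RYGB and was the only 1 of the 8 genes called, beside a background of 7.08% (5.79% higher and 1.29% lower in RYGB). Its level was 31.7, 28.1, 23.3 and 21.5 CPM in sham and 51.1, 92.7, 40.1 and 51.2 CPM in RYGB. The RYGB libraries were all above the sham libraries, as for 13.4% of genes tested in liver (3.05% were so with RYGB below), and replicate 2 was the highest. The means were 26.2 ± 4.63 (SD, n = 4) and 58.8 ± 23.2 (SD, n = 4), a log2 fold change of 1.08 (SE 0.23, 95% interval 0.59 to 1.58, adjusted p = 0.0189 by limma) or 2.12-fold. The median over all genes in liver was 0.13. With libraries scaled by median ratio Fkbp5 had 0.93, and its adjusted p of 0.0480 by limma was just inside the threshold. The call was kept in 7 of 8 repeats without a library and lost without sham replicate 4 (log2 fold change 1.00, adjusted p = 0.0546 by limma). Within the 3 lanes that held libraries of both groups the log2 difference was 0.84, 2.00 and 0.50, each from 1 or 2 libraries a group.

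The make-up of the liver libraries moved with the groups as well. All 8 hepatocyte markers were listed, and the sums of 8 macrophage markers were 366.9 to 609.0 CPM in sham and 776.3 to 1981.5 CPM in RYGB. The sums of 6 fibroblast markers were 273.1 to 370.6 CPM in sham and 405.2 to 820.0 CPM in RYGB. RYGB replicate 2, the highest library for Fkbp5, was the highest for the macrophage sum. Without it the log2 fold change of Fkbp5 was 0.84 and the call was kept. The other RYGB libraries still lay above all sham libraries in both sums, so that repeat does not separate Fkbp5 from the make-up. The part of macrophages and fibroblasts in the difference was not tested.

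The other 7 genes were not called in liver, and Foxo1 and Ddit4 had an unadjusted p under 0.05, as 26.9% of all genes had. Foxo1 was 41.2, 35.5, 34.7 and 34.5 CPM in sham and 39.9, 57.9, 41.0 and 46.8 CPM in RYGB (log2 fold change 0.33, SE 0.13, adjusted p = 0.137 by limma), with sham replicate 1 within the RYGB range. Ddit4 was 23.4, 9.5, 6.9 and 11.4 CPM in sham and 5.0, 7.8, 9.8 and 4.5 CPM in RYGB (-0.75, SE 0.32, adjusted p = 0.166 by limma), where sham replicate 1 stood above all others. Cdkn1a was 4.9, 10.0, 4.1 and 4.5 CPM in sham and 4.4, 19.6, 14.4 and 7.1 CPM in RYGB (0.73, SE 0.39, adjusted p = 0.253 by limma). The remaining genes overlapped broadly, with log2 fold changes of -0.14 for Foxo3, -0.03 for Gadd45a, -0.22 for Klf15 and 0.23 for Fbxo32, which ran from 2.6 to 6.5 CPM over all 8 liver libraries.

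In liver 13 of 99 rows of the further lists were called (13.1%, beside 7.08% of all genes), 12 of them higher in RYGB. Gadd45b, a relative of Gadd45a, was among them but reached the minimum of 1 CPM through the RYGB group alone, so its levels are given without its test (0.5 to 0.7 CPM in sham, 3.4 to 4.5 CPM in RYGB), and 12 of 98 rows were called without it. Of the FoxO targets Igfbp1, an insulin-suppressed binding protein of IGF1, rose from 24.3 to 224 CPM on average (log2 fold change 2.89, SE 0.59, adjusted p = 0.0177 by limma), and Lpl rose (1.56, SE 0.19, adjusted p = 0.00185). Sgk1, a kinase related to Akt, rose (1.05, adjusted p = 0.0130), as did the autophagy receptor Sqstm1 (0.75, adjusted p = 0.0315) and the ligases Cblb (0.78, adjusted p = 0.00460) and Fbxo21 (0.66, adjusted p = 0.0173). Of the myostatin and activin pathway Inhbb (1.30, adjusted p = 0.0352), Fstl1 (0.98, adjusted p = 0.0164) and Tgfbr1 (0.60, adjusted p = 0.0455) rose. Ccnd1 (1.22, adjusted p = 0.0206) and Runx1 (1.12, adjusted p = 0.0378) rose too. Of the 13 glucocorticoid response genes 8 were positive and 5 had an unadjusted p under 0.05, beside 26.9% of all genes. Only 1 of the 13 was called, Prodh, an enzyme of proline breakdown, which fell (-0.81, adjusted p = 0.0292).

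**Figure D4:**
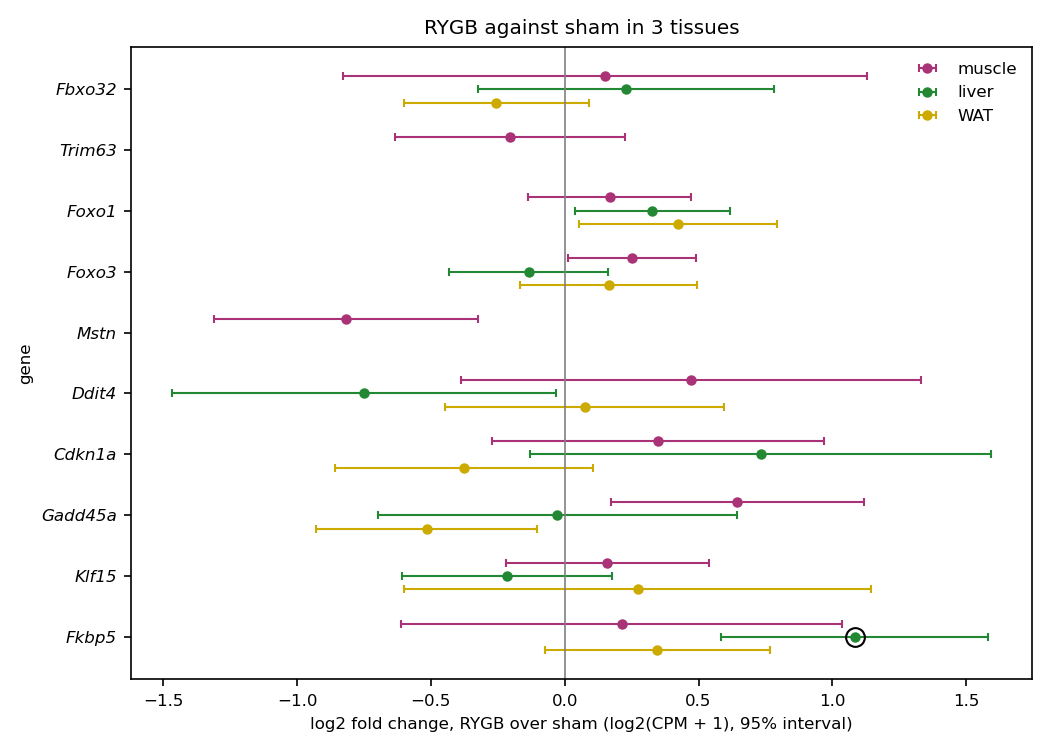
Log2 fold change of RYGB over sham with its 95% interval from limma on log2(CPM + 1) for the 10 genes in muscle (purple), liver (green) and WAT (yellow), 4 libraries a group; a black ring marks a called value. Fkbp5 in liver, at 1.08, is the only called value, and Trim63 and Mstn have a muscle value only.

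In WAT none of the 8 genes was called, beside 24.1% of all genes tested (14.9% higher and 9.23% lower in RYGB), and 2 had an unadjusted p under 0.05, beside 50.0% of all. Foxo1, which in fat restrains adipocyte differentiation, was 125.6, 134.5, 124.6 and 132.7 CPM in sham and 139.4, 149.7, 181.8 and 240.7 CPM in RYGB. The groups did not overlap, as for 41.2% of genes tested in WAT (26.1% with RYGB above and 15.0% with RYGB below), and the RYGB libraries were spread far more widely than the sham libraries. The means were 129 ± 4.98 (SD, n = 4) and 178 ± 45.6 (SD, n = 4), with a log2 fold change of 0.42 (SE 0.16, 95% interval 0.05 to 0.79, adjusted p = 0.0675 by limma). Without RYGB replicate 4 it was 0.27.

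Gadd45a was 20.5, 20.8, 30.7 and 30.6 CPM in sham and 18.6, 21.5, 14.6 and 15.3 CPM in RYGB, with 1 RYGB library above the lowest sham libraries. The log2 fold change was -0.52 (SE 0.18, 95% interval -0.93 to -0.10, adjusted p = 0.0520 by limma), just outside the threshold. It passed with libraries scaled by median ratio (-0.63, adjusted p = 0.0294), and also when either sham replicate 1 or RYGB replicate 2 was left out, and it was farther from the threshold with lane as a covariate (-0.46, adjusted p = 0.117). Over the 8 repeats without a library the adjusted p ran from 0.0419 to 0.130. The unadjusted differences thus had opposite signs for Gadd45a in muscle and in WAT, and the difference between the tissues was not tested.

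Cell type markers also moved with the groups in WAT. All 9 lymphocyte markers were called higher in RYGB, and their sum was 73.8 to 344.9 CPM in sham and 1595.2, 2008.9, 2592.7 and 4348.9 CPM in RYGB replicates 1 to 4. The adipocyte sum was 16561.1 to 24007.6 CPM in sham and 8519.6 to 17669.2 CPM in RYGB, lowest in replicate 4, and the endothelial sum was 1660.7 to 2763.2 CPM in sham and 915.1 to 1350.8 CPM in RYGB. The sum of 4 keratinocyte markers was 5.5 to 179.6 CPM in sham and 3.2 to 3.7 CPM in RYGB, and 3 of 8 macrophage markers were called lower in RYGB, with sums of 2163.6 to 3837.4 CPM in sham and 1973.2 to 2805.0 CPM in RYGB. The order of the RYGB libraries by Foxo1 was their order by the lymphocyte sum. The part of these cells in the values of Foxo1 and Gadd45a was not tested.

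**Figure D5:**
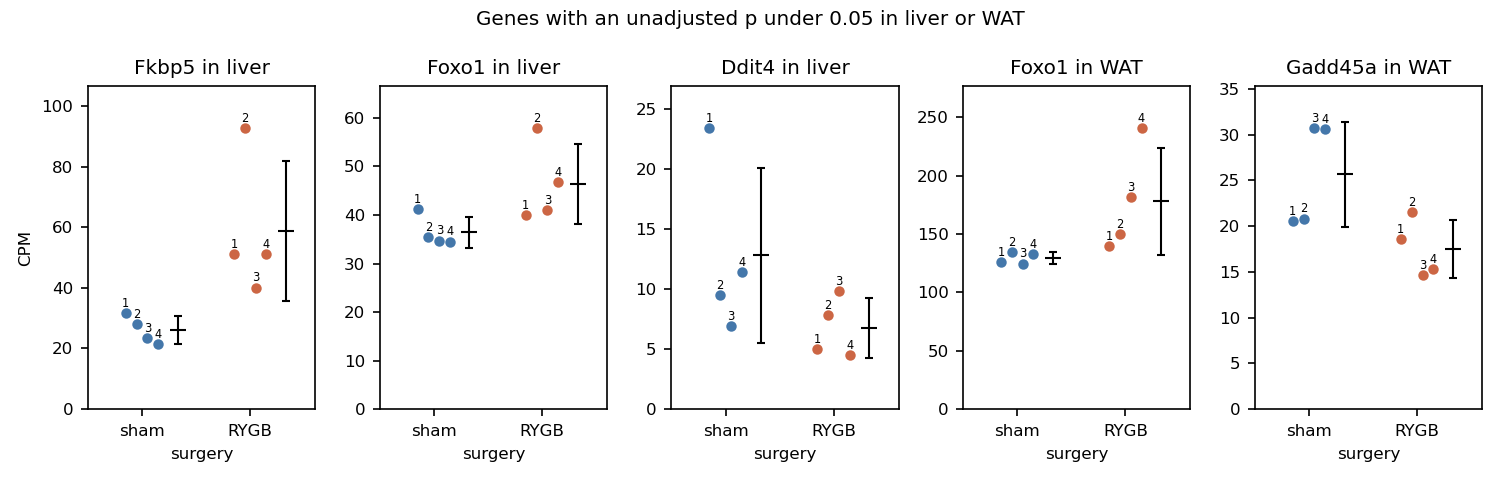
Levels (CPM, axes from 0) of the genes with an unadjusted p under 0.05 in liver (Fkbp5, Foxo1, Ddit4) or WAT (Foxo1, Gadd45a) by library, sham in blue and RYGB in orange, with replicate numbers and the mean with SD (n = 4). Fkbp5 in liver and Foxo1 in WAT are the panels without overlap, and the highest RYGB libraries are replicate 2 for Fkbp5 and replicate 4 for Foxo1.

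The other 6 genes overlapped between the groups in WAT. Fbxo32 was 27.1 to 40.7 CPM in sham and 24.6 to 33.9 CPM in RYGB (log2 fold change -0.26, SE 0.15, adjusted p = 0.203 by limma), with an interval from -0.60 to 0.09. Fkbp5 was 62.1, 40.9, 65.5 and 50.5 CPM in sham and 56.7, 67.6, 63.6 and 91.2 CPM in RYGB (0.35, SE 0.19, adjusted p = 0.163 by limma), highest in RYGB replicate 4. Cdkn1a had -0.38 (adjusted p = 0.181), Foxo3 0.16 (adjusted p = 0.388), Ddit4 0.07 (adjusted p = 0.810) and Klf15 0.27 (adjusted p = 0.591). For Klf15 sham replicate 1 stood at 61.9 CPM and the other sham libraries at 23.6 to 25.1 CPM.

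Of the further lists 24 of 98 rows were called in WAT (24.5%, beside 24.1% of all genes), 8 higher and 16 lower in RYGB. The autophagy genes Ctsl, a lysosomal protease (log2 fold change -1.21, adjusted p = 0.0141 by limma), Gabarapl1 (-0.78, adjusted p = 0.0103) and Map1lc3a (-0.64, adjusted p = 0.0328) fell. Of the FoxO targets Angptl4 (-1.37, adjusted p = 0.0480) and Klf4 (-1.14, adjusted p = 0.0107) fell, and Sesn3 (1.32, adjusted p = 0.00571) rose. The glucocorticoid response genes Dusp1 (-1.22, adjusted p = 0.00119), Mt2 (-0.98, adjusted p = 0.0389) and Zbtb16 (-0.67, adjusted p = 0.0366) fell. Gdf11 (1.72, adjusted p = 0.00221) rose, and Fstl1 (-1.54, adjusted p = 0.0251) and Inhbb (from 66.3 to 34.3 CPM on average, adjusted p = 0.0127) fell. The ligase Asb2 (1.68, adjusted p = 0.00409) and Cblb (0.74, adjusted p = 0.0270) rose while Fbxo21 fell (-0.78, adjusted p = 0.0126). Irs1, a docking protein of the insulin receptor (-0.64, adjusted p = 0.0310), and Deptor, an inhibitor of mTORC1 (-0.89, adjusted p = 0.0170), fell. Gadd45b (1.10, adjusted p = 0.0126), Runx1 (0.72, adjusted p = 0.0368) and Cdkn1b (0.67, adjusted p = 0.0180) rose. These values were measured in libraries whose lymphocyte and adipocyte sums differed as given above.

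In the intestinal villi, which had 3 RYGB and 4 sham libraries in duodenum and in jejunum and 5 of each in ileum, 8, 9 and 9 of the 10 genes were listed, and Mstn in none. Their levels are given without a test. The groups did not overlap for 2 of 8 genes in duodenum, 4 of 9 in jejunum and 0 of 9 in ileum, beside 15.6%, 22.3% and 9.33% of all listed genes in these tissues. Cdkn1a had 117.4 to 257.1 CPM in duodenum, 161.8 to 377.3 CPM in jejunum and 167.6 to 307.7 CPM in ileum. Fbxo32 ran from 1.0 to 5.5 CPM, from 4.9 to 17.0 CPM and from 3.2 to 36.7 CPM in the same order. Fkbp5 in duodenum was 2.8 to 7.0 CPM in sham and 9.5 to 30.2 CPM in RYGB, and Foxo1 there was 31.3 to 37.7 CPM in sham and 39.0 to 41.8 CPM in RYGB, without overlap for either gene. In jejunum Ddit4 was 5.1 to 9.7 CPM in sham and 19.2 to 40.9 CPM in RYGB, Cdkn1a was 161.8 to 258.6 CPM in sham and 333.3 to 377.3 CPM in RYGB, and Klf15 was 2.9 to 3.9 CPM in sham and 0.0 to 0.7 CPM in RYGB, none of them overlapping. Trim63 in jejunum was 0.9 to 1.5 CPM in sham and 0.3 to 0.7 CPM in RYGB, levels at which the rounding to 0.1 CPM weighs. In ileum the groups of each of these genes overlapped.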

How the data were processed

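RNA sequencing libraries of gastrocnemius muscle, liver and subcutaneous WAT from RYGB and sham mice (n = 4 each, day 9) were compared, grouped by their labels. They were made with a stranded mRNA kit. Per the submitters' processing notes HTSeq and GRCm38 were used, with no role stated; the aligner and annotation are not given in the sources used here. The authors deposited CPM rounded to 0.1, in 1 table a tissue. Depth is unknown, and at most 2 of 50 steps of 0.1 CPM up to 5 CPM were empty in a library, so whole reads could not be recovered and no interval or floor from counts is given. With repeated lines counted once (408 in muscle, 1 in liver, 379 in WAT; all with equal values) columns summed to 962798 to 998777 CPM. In liver 12 incomplete lines were left out.

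Genes averaging 1 CPM or more were fitted with limma 3.58.1 (R 4.3.3, empirical Bayes with trend) on log2(CPM + 1), without covariates, with Benjamini-Hochberg adjustment in each tissue. Correlations used exact permutation tests (scipy 1.17.1, Python 3.11.15, pandas 2.3.3, numpy 2.4.6). The fit was tested on simulated data. Alternatives were a pseudocount of 0.1, no minimum, an average of 10 CPM or more, median-ratio scaling, lane as a covariate (inferred from library names ending in L and a number, here 1 to 6; the labels do not call it a lane), a replicate block, the adjusted p alone, and leaving out each library. The labels do not say that equal numbers share anything, so numbers were not taken to pair libraries in the main fit. Same-numbered libraries deviated together (r over 0.1) for 2 of 4 numbers in muscle, 3 in liver and 2 in WAT. Some libraries of unlike numbers did so too, and other such pairs had a negative r. In muscle sham 3 and RYGB 1 had r 0.26, above the highest same-numbered r there, 0.22. Sham 4 and RYGB 3 in liver had 0.23, and sham 3 and RYGB 4 in WAT had 0.29. These r do not settle whether same-numbered libraries are paired.

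The 10 genes, the further lists and the marker lists were chosen with earlier results of these data known. All 10 genes are named; of each further list, the 3 genes with the largest absolute log2 fold change in muscle, and in liver and WAT up to 3 called genes with the largest; and the 5 genes most like Fbxo32. Marker genes, intestinal genes, Cited2, Sesn1, Bcl6, Akt1, Tsc22d3 and Tsc2 were named after their values were seen. Positions are from GENCODE M21 and the promoter from RefSeq.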

Additional observations from a re-analysis of the deposited data

Results flagged for a closer look

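In 4 of 52 groups of 4 libraries a single library stood apart by Dixon's test (gap over range above 0.829), where chance gives about 2.6. Foxo3 in muscle was 42.0 CPM in RYGB replicate 3 and 33.0 to 33.9 CPM in the other RYGB libraries (0.889). Foxo1 in liver was 41.2 CPM in sham replicate 1 and 34.5 to 35.5 CPM in the other sham libraries (0.839). Foxo3 in liver was 65.6 CPM in sham replicate 4 and 48.5 to 50.9 CPM in the others (0.84). Klf15 in WAT was 61.9 CPM in sham replicate 1 and 23.6 to 25.1 CPM in the others (0.937). None of the genes had RYGB wholly above sham in 1 tissue and wholly below it in another (0 genes).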

How the results depend on the processing

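In muscle the number of genes called, 0 of 11966, became 3 with a minimum average of 10 CPM and 2 with median-ratio scaling, and it ran from 0 to 210 when a library was left out (57 for sham replicate 3, 210 for RYGB replicate 4). None of the 10 genes was called in these fits. With a replicate block 184 genes were called in muscle, 90.8% of them higher in RYGB. Mstn was then the 1 called among the 10 (adjusted p = 0.0393 by limma), and it was not called with lane as a covariate (adjusted p = 0.459). The labels do not say whether same-numbered libraries share anything, and r of their deviations ran from -0.27 to 0.22 in muscle and reached 0.39 in WAT. The block gave 1236 genes in liver and 3328 in WAT and changed no other call of the 10 genes. In liver 458 genes were called with a minimum average of 10 CPM and 330 to 1205 when a library was left out, fewest without RYGB replicate 3 (391, 464 and 387 when sham 1, 2 or 4 was the library left out, 553 for RYGB 2), and Fkbp5 alone or none of the 8 genes was called (0 to 1). In WAT 4980 genes passed on the adjusted p alone, 2526 to 3770 were called when a library was left out, and Gadd45a was the 1 gene called with scaling and in 2 of 8 such repeats (0 to 1). Scaling moved the median over all genes on the log2 scale from 0.13 to -0.01 in liver and from 0.11 to about 0 in WAT, and the share of calls higher in RYGB from 81.8% to 65.3% and from 61.8% to 49.7%. The correlation of Fbxo32 and Klf15 had an adjusted exact permutation p of 0.0569 with scaling, which leaves 0 of 45 pairs, and 0 to 1 pairs remained when a library was left out. Directions reversed for Ddit4 in WAT with scaling (-0.038) and Klf15 in WAT with lane as a covariate (-0.033). When a library was left out, the log2 fold change ran from -0.22 to 0.48 for Fbxo32 and from -0.057 to 0.58 for Fkbp5 in muscle, from -0.28 to 0.18 for Gadd45a in liver, and from -0.12 to 0.24 for Ddit4 in WAT. What caused these shifts was not tested.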
